A study of Mus musculus with 6 samples.

Results

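The Mir155 host gene (Mir155hg) and its upstream flank were examined as open chromatin in mouse macrophages, over a 200 kb window of chromosome 16 from 84560000 to 84760000 (mm9). The window was chosen from the deposited lists of the same 6 libraries that are described here. Presence, width, z-score and density of its hotspots are therefore a description, and no test was made on them. All hotspots that overlap the window were taken, which gave 102 of the 253044 hotspots in the 6 lists. Merged across libraries where they overlapped, they formed 23 of 59069 regions.

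The assay was DNase-seq, in which sites that DNase I cuts easily mark open chromatin, and a hotspot is a stretch where sequenced tags pile up above their surroundings. The cells were primary macrophages derived from bone marrow of C57BL/6J mice, and every group received LPS, a bacterial cell wall component, for 8 h. For the LPS group (2 libraries) the labels name no other treatment. The pre-treated group (2 libraries) received the glucocorticoid Dex before LPS, and the late-treated group (2 libraries) received Dex late. Neither the dose nor the interval is given in the labels, and untreated cells were not analysed here. Nothing in the labels states that replicates are separate cultures or animals, so SDs measure the spread between libraries only, which may be technical.

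Mir155hg is a long non-coding RNA gene, once known as Bic, whose transcript is cut into the microRNA miR-155. Toll-like receptor signalling raises it in macrophages through NF-κB and AP-1, and miR-155 then lowers brakes on the inflammatory response such as Socs1, a suppressor of cytokine signalling, and Inpp5d, the phosphatase SHIP1. The glucocorticoid receptor is a transcription factor that binds DNA when Dex is present and is known for damping genes that LPS activates. In the order of RefSeq genes (GRCm38.p6, used for names only), the long non-coding RNA gene 4930529L06Rik precedes Mir155hg. The next protein-coding gene is Mrpl39, which encodes a mitochondrial ribosome protein, and Jam2, which encodes a junctional adhesion molecule, lies beyond it.

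The product of the locus is shown first, since its seed, bases 2 to 8 of the mature strand in capitals, is what picks target transcripts. Both arms and the hairpin are from RefSeq (GRCm38.p6), 5′ to 3′, and in the hairpin the capitals mark the arms.
mmu-miR-155-5p: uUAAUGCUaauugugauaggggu
mmu-miR-155-3p: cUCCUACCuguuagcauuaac
Mir155 hairpin: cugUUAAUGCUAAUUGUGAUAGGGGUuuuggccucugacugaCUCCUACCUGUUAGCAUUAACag
Among 1679 mature names in that table, 0 others carried the seed of the 5p arm and 0 others that of the 3p arm.

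The hairpin begins 1117 bases after the start of the RefSeq model of Mir155hg, which is 2223 bases long. The promoter of that model, from 250 bases before its start to 50 bases from it, is printed because open chromatin next to Mir155 is a main readout below. It is on the plus strand and comes from RefSeq with build GRCm38.p6, while all hotspot positions are in mm9, so it was not laid onto the hotspots.
Mir155hg promoter: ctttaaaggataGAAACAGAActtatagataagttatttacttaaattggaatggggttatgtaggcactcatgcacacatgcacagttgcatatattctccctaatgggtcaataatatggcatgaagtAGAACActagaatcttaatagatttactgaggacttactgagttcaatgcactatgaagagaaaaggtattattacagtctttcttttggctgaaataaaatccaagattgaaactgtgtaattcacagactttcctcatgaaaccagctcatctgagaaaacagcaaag
Capitals mark the matches of 7 motifs searched on both strands. The IRF motif GAAANNGAA matched at bases 13 to 21, and 8.56% of 32851 promoters of this length held it. The GR single-site element AGAACA matched at bases 131 to 136, and 19% of promoters held it. No overlap lay between these matches. Letters of the NF-κB motif (held by 26.8% of promoters), the AP-1 motif TGANTCA (7.81%) and the palindromic GR element ACANNNTGT (6.85%) were not in this stretch. The same was true of the PU.1 motif GAGGAAG (13.6%) and the C/EBP motif TTGCNNAA (10.8%). The stretch held 34.3% G and C, below the median of 52.7% over all these promoters, and 3.11% of promoters were lower.

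Each library has a list of its own, and the lists differ in length and reach. They held 48084 and 51834 hotspots under LPS, 34646 and 44686 with Dex before LPS, and 29347 and 44447 with Dex late. The lowest z-score listed, a z-score being the authors' strength of a hotspot within its library, was 7.98 and 8.35 under LPS and 8.98 to 11.6 in the 4 Dex lists. The rule by which a hotspot entered a list is not given in the sources used here, so a region missing from a list is not shown to be closed. Maximum densities were whole multiples of a step of 0.334 to 0.443, to within 0.1 of a step. In the window they ran from 13 to 173 steps. If a step is 1 tag, which no source states, 13 steps have an exact 95% Poisson interval of 6.92 to 22.2 that covers counting error only.

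Under LPS alone the window held more listed open chromatin than in any Dex library. It held 24 and 25 hotspots under LPS, 9 and 17 with Dex before LPS, and 10 and 17 with Dex late. These hotspots covered 25553 and 27239 bp under LPS, 7453 and 12534 bp with Dex before LPS, and 8027 and 16480 bp with Dex late. The means were 26396 ± 1192, 9994 ± 3593 and 12254 ± 5977 bp in that order (SD, n = 2 each). Both LPS libraries lay above all Dex libraries, and the Dex groups overlapped. The longer list of each Dex group, replicate 2, also held more of the window than replicate 1. As a share of the whole list, the window's hotspots were 0.0499% and 0.0482% of the LPS lists and 0.026% to 0.0382% of the Dex lists. With every list cut to its strongest 29347 hotspots, LPS hotspots covered 19961 and 20928 bp against 7004 to 13493 bp in the Dex libraries. The number of hotspots no longer separated the groups at that cut, with 14 and 11 under LPS and 8 to 11 with Dex. Among hotspots with a z-score of at least 11.6 it was 18 and 14 under LPS and 8 to 15 with Dex.

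**Figure D1:**
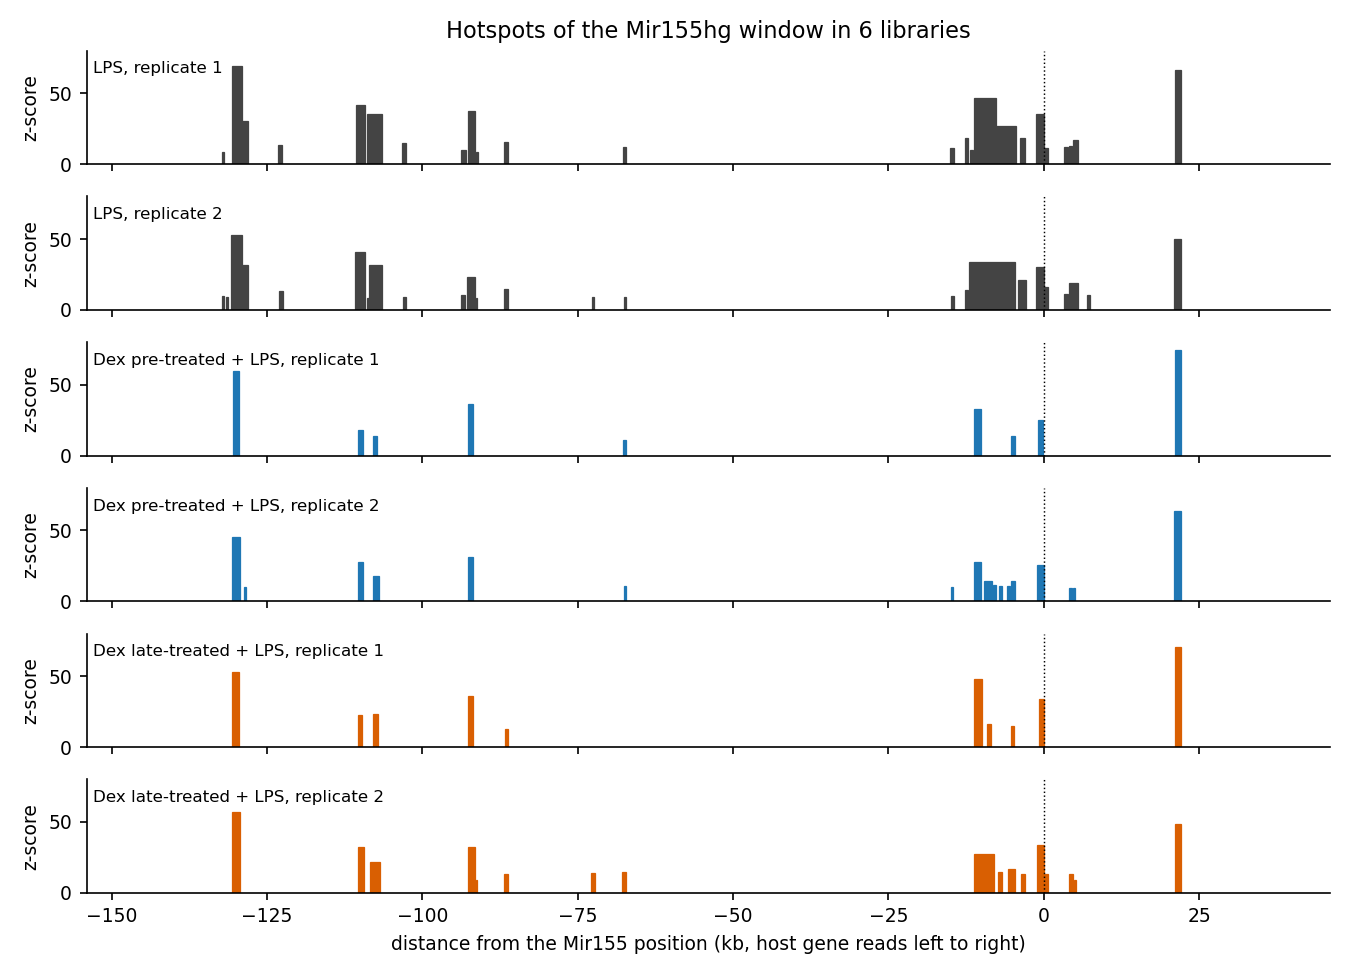
Each bar is 1 hotspot of the window, drawn from its start to its end along the distance from the Mir155 position (kb, dotted line at 0), with its z-score as height and 1 row per library. The LPS rows hold 24 and 25 bars and the Dex rows 9 to 17, while the tall bar about 21 kb downstream stands in every row.

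Of the 23 regions, 7 were listed by all 6 libraries (30.4%, against 42.5% of all regions of the genome). Another 6 were in both LPS lists and in no Dex list (26.1%, against 5.18%), and the reverse class, all 4 Dex libraries and neither LPS library, held 0 (against 0.389%). Both LPS libraries and neither late-treated library listed 8 (34.8%, against 9.22%), and both LPS libraries and neither pre-treated library listed 9 (39.1%, against 8.48%). Nothing is read from these shares, since the window was picked for this contrast. Both Dex comparisons also use the same LPS libraries. LPS replicate 2 listed all 23 regions and LPS replicate 1 listed 20. With Dex before LPS the numbers were 8 and 11, and with Dex late 8 and 13.

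The region over the Mir155 position itself, which is near 84.714 Mb, ran from 84712784 to 84714742. All 6 libraries listed a hotspot in this region. The hotspots of pre-treated replicate 1 and late-treated replicate 1 ended at 84713924 and 84713986. That position is known only to the nearest kb, so whether these hotspots reach Mir155 cannot be told. Its highest z-score was 35.6 and 30.0 under LPS, 25.4 and 25.7 with Dex before LPS, and 33.8 and 33.4 with Dex late. The pre-treated libraries were the lowest and the late-treated ones lay within the range of the LPS ones. Its maximum density was also lowest in the pre-treated libraries, while LPS and late-treated values overlapped, with 21.7 and 23.3 under LPS, 16.9 and 14.8 with Dex before LPS, and 24.0 and 22.6 with Dex late. In whole steps these densities were 65 and 67, 41 and 39, and 60 and 51. Its covered length was 1861 and 1945 bp under LPS, 856 and 1203 bp with Dex before LPS, and 837 and 1710 bp with Dex late. Under LPS and in late-treated replicate 2 it was made of 2 hotspots, the second beginning between 84714105 and 84714130, whereas both pre-treated libraries and late-treated replicate 1 listed a single hotspot. The second hotspot had z-scores of 11.3 and 16.2 under LPS and 13.4 in late-treated replicate 2. The first of these is below the lowest z-score of the late-treated replicate 1 list, 11.6.

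The broadest region lay just upstream, from 84701948 to 84709450, which is 12.1 to 4.6 kb before the Mir155 position and 7502 bp wide. LPS replicate 2 listed it as 1 unbroken hotspot of 7450 bp, and LPS replicate 1 as 3 hotspots that covered 7180 bp. The Dex libraries listed less of it, as 2 to 6 separate hotspots, called islands here. Pre-treated replicate 1 had 2 hotspots over 1644 bp, and pre-treated replicate 2 had 6 hotspots over 4315 bp. Late-treated replicate 1 had 3 hotspots over 2408 bp, and late-treated replicate 2 had 3 over 5187 bp. The LPS libraries thus covered 95.7% and 99.3% of the region, and the Dex libraries 21.9% to 69.1%, with no overlap between LPS and Dex.

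The strongest island of this broad region began near its 5′ end in all 4 Dex libraries. It was 1042 and 1150 bp wide with Dex before LPS, and 1195 and 3301 bp wide with Dex late. The LPS hotspots with the highest z-score in the region were 3580 and 7450 bp wide. That of LPS replicate 1 began at 84702743, close to the Dex islands, so this start was not particular to Dex. Where the maximum lay within any of these hotspots is not given. In each Dex library an island began between 84702751 and 84702820 and carried the highest z-score, at 32.8 and 27.5 with Dex before LPS and 47.9 and 27.7 with Dex late, against 46.7 and 33.5 under LPS. These groups overlapped, and late-treated replicate 1 had the highest value of all. The maximum density was 29.8 and 26.0 under LPS, 18.1 and 20.5 with Dex before LPS, and 27.6 and 19.9 with Dex late. Its LPS and pre-treated values did not overlap, while the late-treated libraries reached into both ranges. A second island near the 3′ end of the region, ending between 84709253 and 84709345, was also in all 4 Dex libraries. It had z-scores of 14.2 and 14.7 with Dex before LPS and 15.2 and 16.6 with Dex late.

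**Figure D2:**
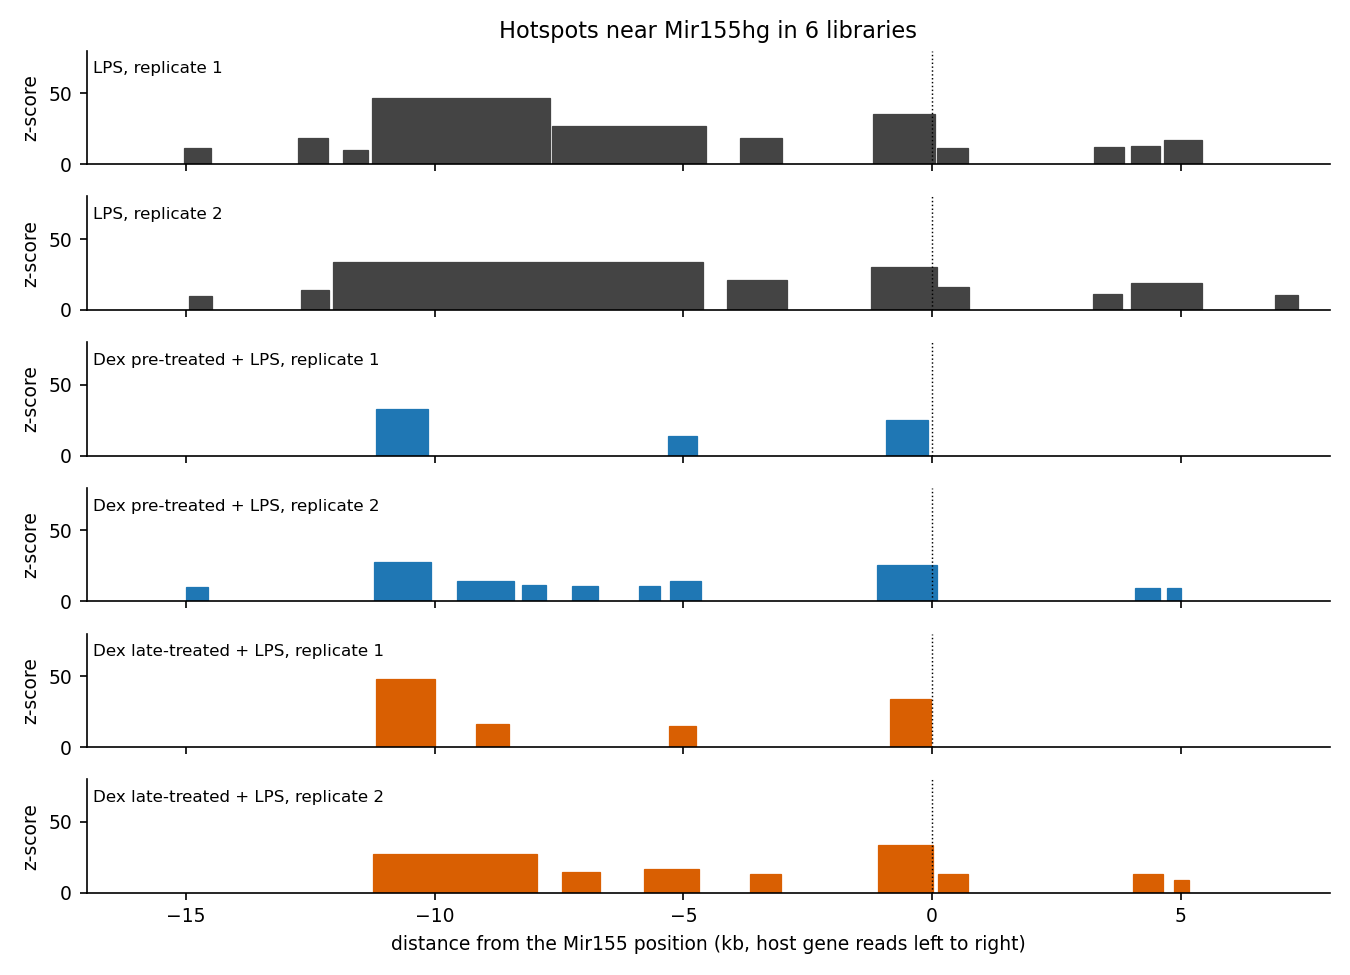
Hotspots near the Mir155 position, by distance from it (kb, dotted line at 0), as bars from start to end with the z-score as height and 1 row per library. The LPS rows show a nearly continuous block between about 12.1 and 4.6 kb upstream, covering 7180 and 7450 bp. The Dex rows show 2 to 6 islands there.

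Smaller regions stood on either side of the broad one. The region at 84701256 to 84701871, only 77 bp before it, was listed in both LPS libraries, with z-scores of 18.6 and 14.2, and in no Dex library. The region at 84709873 to 84711086 had z-scores of 18.5 and 21.0 under LPS and 12.9 in late-treated replicate 2, and was in neither pre-treated list. The region at 84698960 to 84699516 had z-scores of 11.4 and 9.76 under LPS and 10.2 in pre-treated replicate 2. It stood at the 27.6, 13.7 and 9.6 percentile of z-score in these lists.

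Downstream of Mir155, the region at 84717248 to 84717854 was listed under LPS alone, at z-scores of 12.1 and 10.9. Its neighbour 139 bp further, at 84717993 to 84719439, had z-scores of 17.2 and 19.0 under LPS, 9.69 in pre-treated replicate 2 and 13.0 in late-treated replicate 2. It covered 1331 and 1446 bp under LPS against 799 and 906 bp in those Dex libraries. Replicate 1 of either Dex group listed neither of these regions. One weak region, from 84720906 to 84721371, was in the LPS replicate 2 list only (z-score 10.6).

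A second group of regions lay far upstream, 132.3 to 67.2 kb before the Mir155 position, and none lay in the 52127 bp between the groups. This group held a pair of broad regions separated by 300 bp, both in all 6 lists. The first, at 84603130 to 84604826, had z-scores of 41.7 and 40.9 under LPS, 17.9 and 27.8 with Dex before LPS, and 22.3 and 32.5 with Dex late. Both LPS values were above all Dex values, and the Dex groups overlapped. Its maximum density was 29.8 and 30.9 under LPS, 9.06 and 18.2 with Dex before LPS, and 14.8 and 24.8 with Dex late. Its covered length was 1602 ± 133.6 bp under LPS, 792 ± 29.7 bp with Dex before LPS and 759.5 ± 140.7 bp with Dex late (SD, n = 2 each). All Dex hotspots of this region lay inside the LPS ones, beginning between 84603689 and 84603717.

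The second of the pair, at 84605126 to 84607472, had values that lay apart between all the groups by z-score and by maximum density. Its z-score was 35.4 and 31.5 under LPS, 23.4 and 21.8 with Dex late, and 14.1 and 17.7 with Dex before LPS, with no overlap between any of the groups. The maximum density followed the same order, at 22.1 and 31.2 under LPS, 17.6 and 14.2 with Dex late, and 8.65 and 11.8 with Dex before LPS. In whole steps these were 66 and 90, 44 and 32, and 21 and 31. The order of the Dex groups in density thus rests on a small gap between their replicates 2. Covered lengths were 2342 and 2284 bp under LPS, 806 and 1628 bp with Dex late, and 656 and 986 bp with Dex before LPS. Here the Dex groups overlapped. How often all the groups lie apart in this order over the genome was not counted, so nothing is read from it.

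The region at 84584958 to 84585968 was the strongest one of the window that both LPS libraries listed and neither late-treated library did. Its z-score was 30.2 and 31.5 under LPS and 9.89 in pre-treated replicate 2. Its maximum density was 17.7, 16.7 and 4.94 in these libraries, which are 53, 48 and 13 steps. It began 40 bp after the region at 84583150 to 84584918, which stood in all 6 lists with z-scores of 69.6 and 52.5 under LPS, 59.4 and 45.1 with Dex before LPS, and 53.2 and 57.0 with Dex late. Hotspots of that region ended at 84584918 and 84584912 under LPS, close to the neighbour's start, and between 84584501 and 84584724 with Dex. Its z-scores overlapped between LPS and Dex while its covered length did not, with 1526 and 1762 bp under LPS against 1021 to 1332 bp in the Dex libraries.

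The other far upstream region of all 6 libraries, at 84621221 to 84622519, did not separate the groups. Its z-scores were 37.4 and 23.5 under LPS, 36.6 and 31.4 with Dex before LPS, and 36.0 and 32.6 with Dex late. Its LPS flank at 84620194 to 84621058 was in no Dex list, at z-scores of 10.3 and 10.9. Its other flank, at 84622617 to 84622948, was at 8.79 and 8.36 under LPS and 9.14 in late-treated replicate 2. The first flank stood at the 20.4 and 22.0 percentile of z-score in the LPS lists, and the other at 8.26 and 0.0849.

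The other far upstream regions named next had z-scores of 8.52 to 14.9. Under LPS alone these were 84581706 to 84582156 (z-scores of 8.52 and 9.68), 84590753 to 84591510 (13.3 in both) and 84610769 to 84611441 (14.9 and 9.33). LPS replicate 2 alone listed 84582464 to 84582736, at 9.04, and LPS replicate 2 and late-treated replicate 2 listed 84641143 to 84641776, at 9.1 and 14.0. The region at 84646203 to 84646833 was in every list but that of late-treated replicate 1, at 9.38 to 14.7. Of the 6 regions found under LPS alone, 2 had both z-scores at or above 11.6, the highest of the lower ends of the lists. In each of the other 4, at least 1 LPS z-score was below it. The 6 had a median width of 643.5 bp, against 546 bp for all such regions of the genome, and the 7 regions of all libraries had 1768 bp against 1119 bp.

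The last region of the window, at 84734986 to 84736124 and 21 kb downstream of Mir155, had the highest z-score of the 7 as a mean over all 6 libraries. The region at 84583150 was higher in both LPS libraries and in late-treated replicate 2. The z-score was 66.2 and 49.99 under LPS, 74.5 and 63.9 with Dex before LPS, and 70.8 and 48.9 with Dex late. The groups overlapped. Its maximum density was 57.9 and 43.0, 58.9 and 45.6, and 56.4 and 39.0 in the same order, so replicate 1 was above replicate 2 in each group. The covered length was 1048 and 1075 bp under LPS, 1093 and 1109 bp with Dex before LPS, and 943 and 971 bp with Dex late.

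**Figure D3:**
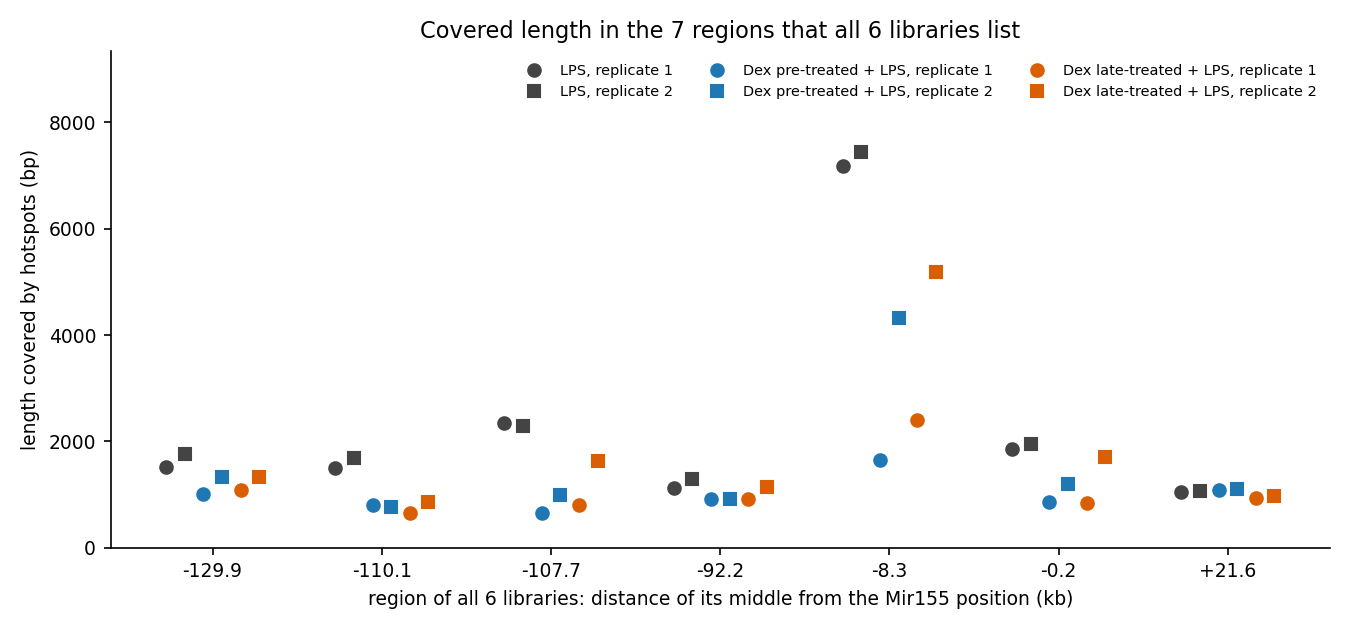
Length covered by hotspots (bp, vertical axis) in the 7 regions that all 6 libraries list, placed by the distance of their middle from the Mir155 position (kb); each point is 1 library, with circles for replicate 1 and squares for replicate 2. The LPS points stand above all Dex points in 5 of the 7 regions, and the widest gap is in the broad region just upstream of Mir155.

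Since this region serves as a reference within each library, densities were also divided by its density, which removes any scaling of a whole library. For the region over Mir155 the ratio was 0.376 and 0.540 under LPS, 0.287 and 0.325 with Dex before LPS, and 0.426 and 0.580 with Dex late. The pre-treated libraries were again below the other 4. For the region at 84605126 it was 0.382 and 0.726 under LPS, 0.147 and 0.258 with Dex before LPS, and 0.312 and 0.364 with Dex late. For the broad region it was 0.514 and 0.605, 0.308 and 0.450, and 0.489 and 0.511 in the same order of groups. The lowest LPS ratio there was barely above the highest Dex ratio. Ratios of z-scores overlapped, at 0.706 and 0.671 under LPS, 0.440 and 0.430 with Dex before LPS, and 0.677 and 0.567 with Dex late. For the region at 84603130 it was 0.514 and 0.718, 0.154 and 0.400, and 0.262 and 0.636, so LPS and late-treated values overlapped on this scale.

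**Figure D4:**
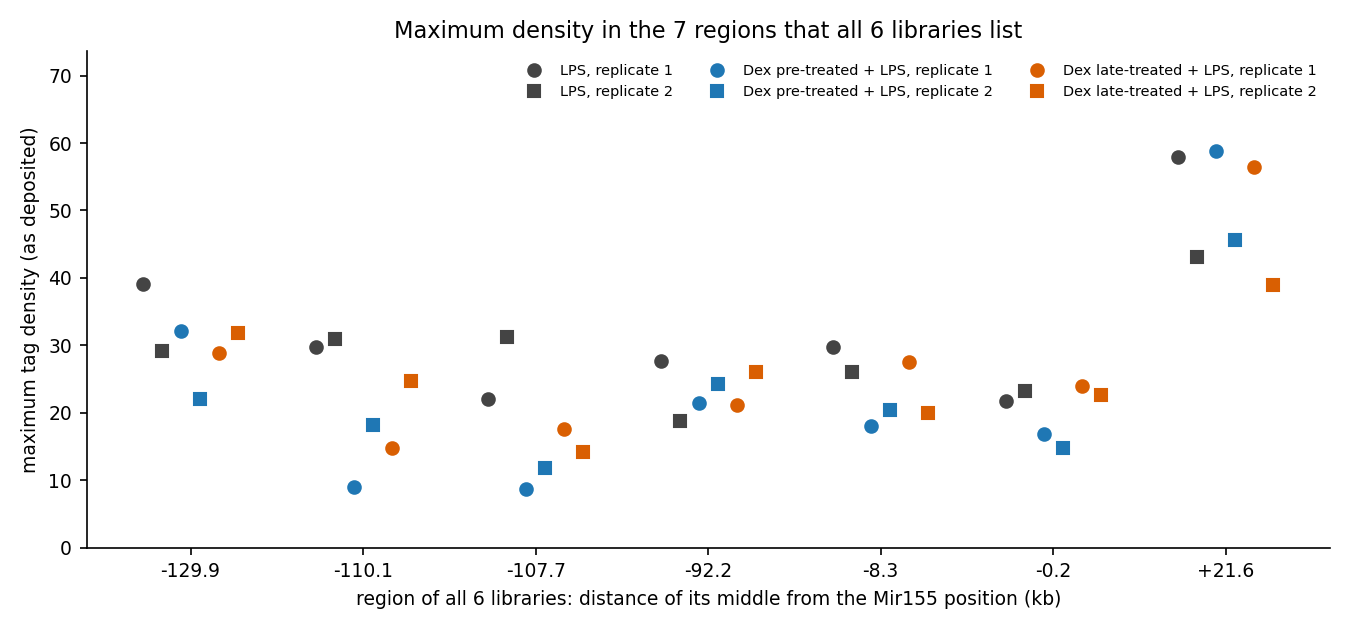
Maximum tag density (as deposited, vertical axis) in the 7 regions that all 6 libraries list, placed by the distance of their middle from the Mir155 position (kb); each point is 1 library, with circles for replicate 1 and squares for replicate 2. In the region over Mir155 the pre-treated points (16.9 and 14.8) are below the other 4, and in the rightmost region the groups overlap.

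Across the 7 regions of all libraries, both LPS libraries exceeded the 4 Dex libraries in covered length in 5, against 33.9% of the 25091 such regions of the genome. By z-score this held for 2, the pair at 84603130 and 84605126, against 17.2%, and by maximum density for the same pair, against 9.11%. Both pre-treated libraries were below the other 4 by z-score in 2, at 84605126 and over Mir155, against 5.85%, and by maximum density in the same 2, against 5.17%. By covered length this held for 0, against 2.23%. The comparison of LPS with Dex used values that picked the window, so its shares are given beside the background only. Values of separate lists share no stated scale, and a comparison of 2 libraries with 2 could not give an exact two-sided p below 0.333.

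The Dex groups were set side by side as well. Both late-treated libraries and neither pre-treated library listed 1 region, at 84627174 to 84627839 (1 of 23, against 0.35% of all regions), with z-scores of 12.9 and 13.6 with Dex late and 15.9 and 14.5 under LPS. Maximum densities there were 12.0 and 13.7 with Dex late and 15.4 and 15.3 under LPS. These late-treated z-scores were above the lower ends of both pre-treated lists, 9.34 and 9.16. The reverse class held 0 regions. In the 7 regions of all libraries, the Dex groups overlapped in z-score and in maximum density everywhere except at 84605126 and over Mir155. In covered length they were apart at 84734986 alone. How often the Dex groups are apart over all such regions of the genome was not counted, so nothing is read from these regions.

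The density of regions was set beside the rest of the genome as a description only, since the window was picked from these same lists. Tiles were laid so that the window was itself a tile, while other clusters could be cut at tile edges. Tiles without any region were counted too. With the genome cut into 13186 tiles of 200 kb, 3 tiles (0.0228%), this window among them, held at least 6 regions found under LPS alone. That number in the window was 2 when hotspots up to 500 bp apart were merged, and 3 with lists of equal length, with the stronger 50% of each list or with a common minimum z-score. At equal length none of the 3 was among the 6. At least 23 regions of any class were in 69 tiles (0.523%). Of the 1579 regions in the genome with the same listing as 84584958 (both LPS libraries, pre-treated replicate 2 and no other), it had the highest mean percentile of z-score in the LPS lists, 74.4. The nearest to it by that measure were chr12:21135083-21135890 with a mean percentile of 61.6, chrX:163617706-163618559 with 60.3, chr11:115495140-115496051 with 59.4, chr2:166558311-166559075 with 59.0 and chr8:63283555-63284203 with 57.9. The region at 84584958 was singled out by its LPS z-scores in a window picked from these lists, so nothing is read from its rank. It also lies 40 bp from the region at 84583150, which all 6 libraries listed. Merging hotspots up to 500 bp apart would join these regions, and this listing would be lost.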

How the data were processed

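The 6 libraries were grouped by their titles. The submitters' processing notes name mm9 and CASAVA. How reads were aligned, how hotspots were called, which threshold they passed and how densities were scaled is not given in the sources used here. Per the file headers, each deposited hotspot has a start, an end, a maximum and an average tag density (signal), a z-score (score) and a p-value. The p-value was not used. Whether positions count from 0 or 1 is not stated, and they are printed as deposited. Hotspots of all lists were merged where they touched or overlapped, and a library listed a region if 1 of its hotspots lay in it. Per region and library, covered lengths were summed and the highest z-score and density taken. Named one by one were regions of all 6 libraries, regions in both libraries of 1 group and neither of another, and the region over Mir155; others found in few libraries were added after their values were seen. The window, the motifs and the alternatives were chosen with earlier results of these data known. Merging and counting were tested on simulated lists of well separated regions, which held no split hotspots and no close neighbours. Python 3.11.15, pandas 2.3.3 and scipy 1.17.1 were used. Regions at other genes of the miR-155 pathway and at cell type markers were not analysed here.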

Additional observations from a re-analysis of the deposited data

Results flagged for a closer look

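In 2 measurements both libraries of one Dex group lay above both LPS libraries and both libraries of the other Dex group lay below them. Neither difference was tested. How often such an order occurs over all regions of the genome was not counted, so nothing is read from these 2. For the region over Mir155, the average density, weighted by hotspot length, was 7.11 and 7.3 under LPS, 6.09 and 6.28 with Dex before LPS, and 9.11 and 7.5 with Dex late, and the late-treated mean was higher than the pre-treated one by 2.12. Late-treated replicate 1 listed 1 hotspot there, without the weaker second hotspot that both LPS libraries listed. For the region at 84734986, covered lengths were 1048 and 1075 bp under LPS, 1093 and 1109 bp with Dex before LPS, and 943 and 971 bp with Dex late, a late minus pre-treated difference of -144 bp.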

How the results depend on the processing

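The number of regions found under LPS alone, 6 as reported, was 2 when hotspots up to 500 bp apart were merged and 3 with lists of equal length, with the stronger 50% of each list or with a common minimum z-score. These were partly other regions. At equal length they were 84584958, 84709873 and 84717993, none of which was among the 6. Regions in both LPS libraries and neither late-treated library were 3 in place of 8 under each of these 4 settings. Those in neither pre-treated library were 3, 3 and 4 in place of 9 with wider merging, equal length and the stronger 50%. Merged regions were 14, 15 and 11 in place of 23 in that order, since merging and shorter lists leave fewer. With at least 50% of the region covered, 3 in place of 7 regions were listed by all 6 libraries. LPS libraries had a mean of 12.5, 11 and 16 hotspots over 20444.5, 19465 and 22535 bp at equal length, in the stronger 50% and from the common z-score. The stronger 50% left a mean of 5.5 hotspots over 5702.5 bp in the pre-treated group and 6 hotspots in the late-treated group. The count of regions with both LPS libraries above all Dex libraries was 1 in place of 2 by average density and by z-score over that of the reference region, for a cause that was not tested. Leaving out each library in turn gave 6 to 9 regions found under LPS alone, 8 to 12 in neither late-treated library and 9 to 13 in neither pre-treated library. Leaving out a library can remove a condition that a region had to meet. These counts could therefore scarcely fall, and no stability is read from them. The mean covered length of the late-treated group lay between 8027 bp without replicate 2 and 16480 bp without replicate 1. No paired analysis was possible because the results come from no test.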

Other observations

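Just outside the window, listed regions were sparse upstream. The next region on that side lies 3105 kb before the window, at 81454570 to 81455441, and all 6 libraries listed it, at z-scores of 18.7 to 30.1 with no separation of LPS from Dex. The next region downstream, 35 kb after the window at 84795030 to 84795635, was in neither LPS list, whereas LPS replicate 2 listed every region of the window. It had z-scores of 14.0 and 12.8 with Dex before LPS and 9.86 in late-treated replicate 2.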
